A study of Mus musculus with 30 samples.

Results

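Mouse macrophages cultured across a transwell membrane from podoplanin-positive (PDPN+) stromal cells were compared with macrophages analysed ex vivo, without culture. The comparison takes the 3 libraries titled LCM_PDPN_tw and the 3 titled LCM_in_vivo, which are 6 of the 18 macrophage libraries and of the 30 libraries of the whole series. The libraries were assigned by title alone, and the comparison itself was chosen with earlier results of these data known. A transwell keeps the cells apart and lets soluble molecules pass, so what still separates these macrophages from ex vivo cells was measured with soluble stromal signals only. In the labels the transwell macrophages carry the tissue label in_vitro and the treatment tw. The ex vivo macrophages carry the tissue label ex_vivo, the treatment none and a source name that ends in lavage. The transwell cells were sorted on F4/80 (encoded by Adgre1) and the stromal cells, labelled om_pdpn, on podoplanin. How the ex vivo cells were isolated, the strain, age and number of mice, the culture time and any added growth factor are absent from the labels used here. Culture, sorting and time outside the body therefore come together in this comparison and cannot be told apart. Macrophages cultured alone (3 libraries) and in direct co-culture with PDPN+ cells (3 libraries) serve as further points of comparison. Macrophages cultured with all-trans retinoic acid (3 libraries) are cited for Cyp26a1 only. They and the macrophages titled BMS (3 libraries) are also among the 18 libraries of the main fit. Both groups therefore enter the spread estimate behind its p-values.

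Macrophages of the body cavities keep an identity that depends on signals from their surroundings. In the mouse, the transcription factor GATA6 drives much of the programme of resident macrophages of the peritoneal cavity, and retinoic acid, made from vitamin A by stromal and mesothelial cells, supports GATA6. Retinoic acid acts through the nuclear receptors RARα, RARβ and RARγ paired with RXR partners, and it raises genes such as Cyp26a1 and Rarb, which then serve as readouts of the pathway.

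The 6 libraries held 30164747 to 44526756 counts, from 15046 to 20100 sorted cells in the transwell group and 25000 cells in each ex vivo library, with RNA integrity numbers of 9.5 to 9.9. Levels are given as CPM, counts per 1e6 counts of the library after TMM scaling, and values are listed in the order of libraries 1, 2 and 3, which are also 3 labelled batches (library 3 of each group is batch 340). Of genes with a mean of at least 10 CPM, 395 of 8242 differed by more than 4-fold among the transwell libraries, against 249 of 8155 among the ex vivo libraries. Transwell library 3 was the highest in 232 of those 395 genes, so it stands somewhat apart from the other 2. Adgre1, the gene of the sorting marker, had 2970, 2231 and 1910 CPM in transwell macrophages, against 4684, 3064 and 4851 CPM in ex vivo macrophages (log2 fold change -0.85, SE 0.26, adjusted p = 0.0431 by the test described below). That call was lost without transwell library 2 or 3 or ex vivo library 1 or 3, with no low count filter, when the fit held only the 6 libraries and without batch 340 (highest adjusted p 0.181). The 12 macrophage markers summed to 153523, 125259 and 93382 CPM in transwell macrophages, against 113174, 61153 and 103526 CPM in ex vivo macrophages, so both groups carry the identity that their labels give. For 17 fibroblast genes, the excess over ex vivo macrophages, as a percentage of the level in the PDPN+ cells, had a median of 0.118% in transwell macrophages (0.187%, 0.0992% and 0.0433% in the single libraries) and of 2.2% in co-cultured macrophages. Over macrophages cultured alone, the excess was 0.0392% in transwell macrophages and 1.96% in co-cultured macrophages.

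In all, 2300 of 17774 genes passed the test (12.9%; edgeR quasi-likelihood, Benjamini-Hochberg adjusted p under 0.05), of which 1353 were higher (7.61%) and 947 lower (5.33%) in transwell macrophages. With batch as a block the counts were 3534, of which 2052 were higher and 1482 lower. The higher calls included 362 genes changed by more than 10-fold, and the lower calls 119. Leaving out transwell library 1, 2 or 3 left 1894, 1359 or 1484 genes, and leaving out ex vivo library 1, 2 or 3 left 1517, 1360 or 1479. Counted only among genes less than 4 times higher in PDPN+ transwell cells than in the macrophages, 2034 genes passed. The median log2 fold change of all genes tested was 0.02. The share of all genes tested whose groups did not overlap is not given here. A lack of overlap therefore only describes the values of the genes named. Described by gene list, sterol synthesis, lipid handling, glutathione and oxidative stress genes, glycolysis and hypoxia genes, metalloproteinases and growth factors had medians above ex vivo levels, and cell cycle, chaperone and cavity programme genes had medians below them. Counts of calls in a list are to be read beside the shares of all genes, 7.61% higher and 5.33% lower.

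**Figure D1:**
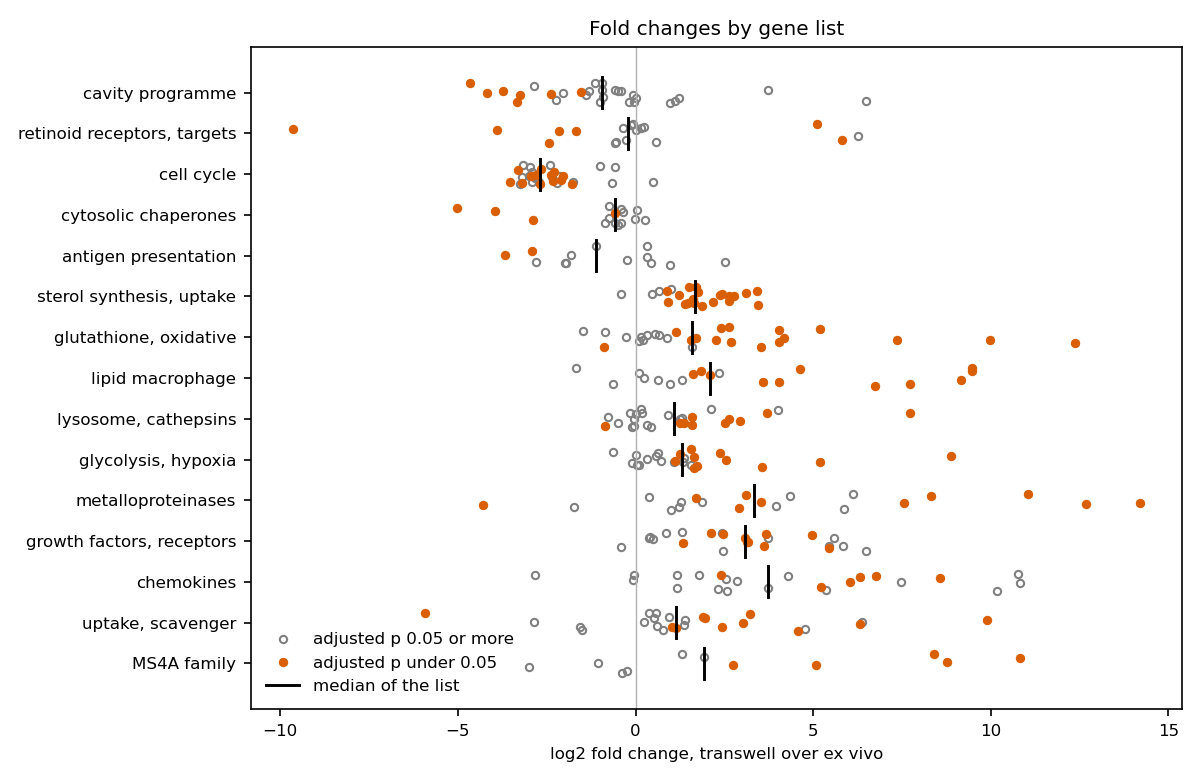
Log2 fold change of transwell over ex vivo macrophages (x axis) for every tested member of 15 gene lists (rows). Filled orange points passed the test, open grey points did not, and black bars mark each list's median, which runs from -2.68 for the cell cycle to 3.74 for chemokines.

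The largest increases were in secreted proteases and in genes with almost no reads in ex vivo cells. Mmp12, the macrophage elastase (ENSMUSG00000049723, chr9:7344381-7369499, GRCm38), had 1271, 9357 and 36530 CPM in transwell macrophages, against 0.219, 1.24 and 0.941 CPM in ex vivo macrophages. Every transwell library lay far above every ex vivo library, and the choice of the largest increases required the groups to lie apart. The transwell libraries themselves spanned a wide range with library 3 the highest (log2 fold change 14.19, SE 2.89, adjusted p = 0.00493). Spint1, an inhibitor of serine proteases, had 42.5, 122 and 337 CPM in transwell macrophages and no count in ex vivo macrophages, which makes it at least 6300-fold higher when the group is set to 3 counts in all (adjusted p = 0.0104). Dcstamp, needed for the fusion of osteoclasts and giant cells, had 3.35, 31.97 and 138 CPM in transwell macrophages and again no count in ex vivo macrophages, at least 2180-fold higher (adjusted p = 0.0438). On the log2 scale (± SE), Mmp13 and Mmp8, both collagenases, rose by 12.69 ± 2.98 (adjusted p = 0.0114) and 11.04 ± 2.61 (adjusted p = 0.0119). Slc7a11, the cystine importer, rose by 12.37 ± 2.89 (adjusted p = 0.0111), and Gsta3, a glutathione transferase, by 9.96 ± 0.83 (adjusted p = 4.95e-06). Met, the receptor of hepatocyte growth factor, rose by 9.96 ± 2.72 (adjusted p = 0.0254).

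The other 4 of the 12 largest increases rested on 1 or 2 ex vivo counts. Speg, a kinase known from muscle, had 1210 counts in the transwell group against 1 in the ex vivo group, a ratio of 1640 (95% binomial interval 293 to 64600, adjusted p = 0.000478). Ch25h, which makes 25-hydroxycholesterol, had a ratio of 1870 (interval 335.6 to 74000, adjusted p = 0.01098). Penk, which encodes proenkephalin, had a ratio of 2320 (interval 642 to 19200, adjusted p = 0.0473), and Rgs16, a regulator of G-protein signalling, one of 1470 (interval 263 to 58100, adjusted p = 0.0467). All 4 were highest in transwell library 3 and lowest in transwell library 1. The call of Penk was lost without transwell library 2 or 3 or ex vivo library 1, 2 or 3 (highest adjusted p 0.157), that of Rgs16 without transwell library 2 or 3 or ex vivo library 1, 2 or 3 (highest adjusted p 0.156) and that of Ch25h without ex vivo library 2 or 3 (highest adjusted p 0.0565). Of the genes in the paragraph before, Dcstamp was lost without transwell library 2 or 3 or ex vivo library 1, 2 or 3 (highest adjusted p 0.126), Met without transwell library 3 or ex vivo library 1, 2 or 3 (highest adjusted p 0.103), Mmp13 without ex vivo library 1, 2 or 3 (highest adjusted p 0.0526), Mmp8 without ex vivo library 1 or 2 (highest adjusted p 0.0593) and Slc7a11 without ex vivo library 1, 2 or 3 (highest adjusted p 0.0542). Speg, Mmp12, Spint1 and Gsta3 passed under each alternative setting tried.

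The largest decreases were in genes that ex vivo macrophages expressed in all 3 libraries. Retnla, a secreted protein of alternatively activated macrophages (ENSMUSG00000061100, chr16:48842551-48844461, GRCm38), had 0.985, 0.434 and 0.773 CPM in transwell macrophages, against 531, 685 and 568 CPM in ex vivo macrophages (log2 fold change -9.68, SE 1.01, adjusted p = 3.70e-05). Every ex vivo library lay far above every transwell library. Hgd, homogentisate dioxygenase of tyrosine breakdown, had 2 counts in the transwell group and 1683 in the ex vivo group, so that ex vivo cells held 623 times more (interval 172 to 5150, adjusted p = 0.000855). Itgb7, the integrin β7 chain, had 8.37, 5.68 and 4.49 CPM in transwell macrophages, against 219, 307 and 214 CPM in ex vivo macrophages (log2 fold change -5.34, SE 0.44, adjusted p = 4.95e-06). Lyve1, a hyaluronan receptor, had 1.26, 0.395 and 1.28 CPM in transwell macrophages, against 65.2, 35.6 and 75.8 CPM in ex vivo macrophages (log2 fold change -5.92, SE 1.05, adjusted p = 0.001898). The groups did not overlap for any gene of this paragraph, as the choice of the largest decreases required.

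Further large decreases, as log2 fold changes ± SE, were -7.89 ± 0.73 (adjusted p = 1.23e-05) for Tppp3, a tubulin-binding protein, -7.19 ± 1.14 (adjusted p = 0.000859) for Pglyrp1, which binds bacterial peptidoglycan, and -6.11 ± 0.66 (adjusted p = 4.53e-05) for S1pr5, a sphingosine 1-phosphate receptor. The same values were -5.93 ± 1.02 (adjusted p = 0.00153) for Chil3, a chitinase-like protein of alternative activation, and -5.35 ± 0.72 (adjusted p = 0.000253) for Cmah, which makes the sialic acid Neu5Gc. They were -5.78 ± 1.42 (adjusted p = 0.0146) for Gbp2b, a guanylate-binding protein of the interferon response, -5.76 ± 1.55 (adjusted p = 0.0238) for the sorting receptor gene Sorcs2 and -5.32 ± 1.42 (adjusted p = 0.0223) for Vmn2r26, annotated as a vomeronasal receptor. The call of Gbp2b was lost without transwell library 2 (highest adjusted p 0.0696), that of Sorcs2 without transwell library 1 or 2 or ex vivo library 2 (highest adjusted p 0.094) and that of Vmn2r26 without transwell library 1 or 2 or ex vivo library 1 or 3 (highest adjusted p 0.0921). Chil3 varied among the ex vivo libraries, at 0.769, 0.513 and 1.51 CPM in transwell macrophages, against 11.99, 117 and 37.5 CPM in ex vivo macrophages.

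**Figure D2:**
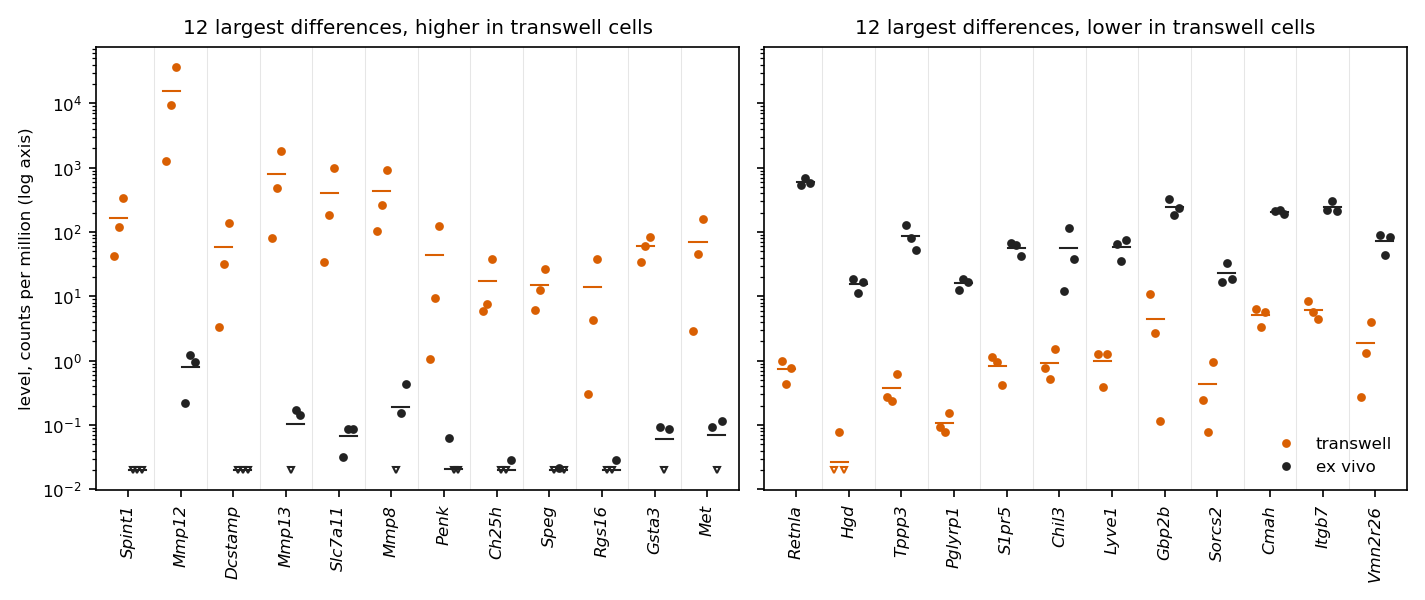
Level in CPM (log axis) of the 12 genes with the largest increase and the 12 with the largest decrease, for transwell macrophages (orange, left of each pair) and ex vivo macrophages (black). Points are libraries, lines are means, and open triangles mark libraries below 0.02 CPM; the 2 groups do not overlap for any of these genes, as the choice of genes required.

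The cavity programme, 29 genes known from resident cavity macrophages, was partly below ex vivo levels. None of the 29 rose and 7 fell, with a median log2 fold change of -0.95, against 0.02 over all genes tested. With batch as a block, 3 rose and 11 fell, and leaving out transwell library 2 or 3 left 4 lower calls. Prg4, which encodes the lubricating glycoprotein lubricin (ENSMUSG00000006014, chr1:150449412-150466165, GRCm38), had 156, 101 and 221 CPM in transwell macrophages, against 4078, 3781 and 3955 CPM in ex vivo macrophages (log2 fold change -4.66, SE 0.95, adjusted p = 0.00493). Icam2, an adhesion molecule used to gate resident cavity macrophages, had 69.9, 59.01 and 93.7 CPM in transwell macrophages, against 1074, 919.8 and 929 CPM in ex vivo macrophages (log2 fold change -3.75, SE 0.53, adjusted p = 0.000372). For both genes every ex vivo library lay far above every transwell library. Garnl3, a GTPase-activating domain protein, had 17.3, 15.8 and 17.7 CPM in transwell macrophages, against 348, 231 and 330.3 CPM in ex vivo macrophages (log2 fold change -4.19, SE 0.58, adjusted p = 0.000303). Aspa, aspartoacylase, had 7.88, 4.26 and 10.5 CPM in transwell macrophages, against 90.9, 50.8 and 69.5 CPM in ex vivo macrophages (log2 fold change -3.25, SE 0.60, adjusted p = 0.00269).

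Coagulation factor V and the growth factor TGF-β2 fell with less certainty. F5 had 322, 180.4 and 182 CPM in transwell macrophages, against 1120, 1067 and 1314 CPM in ex vivo macrophages (log2 fold change -2.38, SE 0.67, adjusted p = 0.0296). Its call was lost without transwell library 2 or 3 or ex vivo library 1, 2 or 3 and without batch 340 (highest adjusted p 0.13). Tgfb2 had 34.4, 18.6 and 3.83 CPM in transwell macrophages, against 276, 78.4 and 210.3 CPM in ex vivo macrophages (log2 fold change -3.33, SE 0.94, adjusted p = 0.0305). Its call was lost without transwell library 2 or 3 or ex vivo library 1 or 3 (highest adjusted p 0.103). Neither gene's groups overlapped. Selp, which encodes the adhesion molecule P-selectin, had 569, 298 and 239 CPM in transwell macrophages, against 1087, 998 and 1066 CPM in ex vivo macrophages (log2 fold change -1.53, SE 0.37, adjusted p = 0.0142), and its call was lost without transwell library 2 or 3 and without batch 340 (highest adjusted p 0.0957). In macrophages cultured alone Selp was far lower still, at 12.4, 9.805 and 15.3 CPM, so the transwell level lay between those of the other 2 groups.

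Gata6 itself did not pass the test. It had 27.6, 42.3 and 41.1 CPM in transwell macrophages, against 22.5, 70.8 and 114 CPM in ex vivo macrophages, and the groups overlapped (log2 fold change -0.93, SE 0.48, adjusted p = 0.236). Macrophages cultured alone held 3.64, 7.41 and 5.35 CPM, below every transwell library, although that difference missed the threshold (log2 fold change 2.71, SE 0.51, adjusted p = 0.107, or 0.00591 with batch as a block). Fn1, fibronectin, had 6916, 10640 and 8840 CPM in transwell macrophages, against 16830, 28750 and 18950 CPM in ex vivo macrophages (log2 fold change -1.32, SE 0.82, adjusted p = 0.3302). F10, coagulation factor X, had 335, 396 and 625 CPM in transwell macrophages, against 580.0, 670.1 and 607 CPM in ex vivo macrophages (adjusted p = 0.819).

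Further programme genes missed the threshold in the fit by group and passed it with batch as a block. Among these, Alox15, Timd4, Lbp and Ednrb were lowest in transwell library 3. Alox15, the 12/15-lipoxygenase of resident macrophages, had 4984, 3116 and 341 CPM in transwell macrophages, against 12260, 11510 and 10940 CPM in ex vivo macrophages, with an adjusted p of 0.232, or 0.00939 with batch as a block. Timd4, a phosphatidylserine receptor for dying cells, had 170.3, 83.04 and 6.22 CPM in transwell macrophages, against 880.5, 296 and 677 CPM in ex vivo macrophages (adjusted p = 0.194, or 0.00602 with the block). Neither gene's groups overlapped. Arg1, arginase 1, ran the other way, at 6480, 8871 and 16390 CPM in transwell macrophages, against 364, 1430 and 558 CPM in ex vivo macrophages (log2 fold change 3.72, adjusted p = 0.0919, or 0.0332 with the block). Arg1 also passed with DESeq2 (adjusted p = 0.00759), when the fit held only the 6 libraries (0.012) and without batch 340 (0.0348). Cd9, a tetraspanin, had 1187, 1493 and 2834 CPM in transwell macrophages, against 929, 828 and 985 CPM in ex vivo macrophages (adjusted p = 0.222, or 0.0247 with the block). Lbp, the lipopolysaccharide-binding protein, had 59.9, 40.02 and 1.89 CPM in transwell macrophages, against 102, 226 and 150.5 CPM in ex vivo macrophages (adjusted p = 0.256, or 0.00996 with the block, and 0.0249 without batch 340). The other 2 members that the block brings under the threshold are Ednrb, the endothelin B receptor (adjusted p = 0.592, or 0.0401 with the block), and Bmper, a regulator of BMP signalling with no ex vivo count and at most 0.615 CPM in transwell macrophages (adjusted p = 0.0571, or 0.0369 with the block and 0.00273 with DESeq2).

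All 3 retinoic acid receptor genes were lower in transwell macrophages. Rara had 12.5, 19.5 and 23.04 CPM in transwell macrophages, against 65.1, 58.7 and 46.5 CPM in ex vivo macrophages (log2 fold change -1.67, SE 0.36, adjusted p = 0.00722). Rarb had 14.4, 10.5 and 19.8 CPM in transwell macrophages, against 77.5, 49.3 and 68.1 CPM in ex vivo macrophages (log2 fold change -2.16, SE 0.43, adjusted p = 0.00446). Rarg had 8.09, 7.03 and 5.72 CPM in transwell macrophages, against 40.5, 34.8 and 34.6 CPM in ex vivo macrophages (log2 fold change -2.42, SE 0.31, adjusted p = 0.0001602). None of the 3 receptors showed an overlap between the groups, and their calls held under each alternative setting tried. The RXR partners did not pass the test. Rxra had 40.6, 46.2 and 24.8 CPM in transwell macrophages, against 26.9, 32.3 and 34.1 CPM in ex vivo macrophages (log2 fold change 0.23, SE 0.34, adjusted p = 0.733). Rxrb had 34.3, 29.1 and 18.8 CPM in transwell macrophages, against 33.7, 33.8 and 35.1 CPM in ex vivo macrophages (log2 fold change -0.34, SE 0.32, adjusted p = 0.547).

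The target genes of the receptors did not move one way. In the list of 18 tested receptors, cofactors and targets, 2 rose and 5 fell (median log2 fold change -0.20). Cyp26a1, which degrades retinoic acid and is among its most direct targets, had 5.11, 0.0789 and 0.387 CPM in transwell macrophages, against 17.5, 32.8 and 35.1 CPM in ex vivo macrophages (log2 fold change -3.91, SE 1.06, adjusted p = 0.0285). Its call was lost without transwell library 2 or 3 or ex vivo library 2 or 3, when the fit held only the 6 libraries and without batch 340 (highest adjusted p 0.0966). It had no count in macrophages cultured alone and 224 ± 148 CPM (SD, n = 3) in macrophages cultured with all-trans retinoic acid. Its relative Cyp26b1 had no count in transwell macrophages, against 4.45, 3.34 and 1.57 CPM in ex vivo macrophages, at least 87-fold lower with the group set to 3 counts in all (adjusted p = 0.0144), and this call was lost with DESeq2 (highest adjusted p 0.0774). Tgm2, transglutaminase 2, went up: it had 549, 348 and 936 CPM in transwell macrophages, against 7.95, 28.98 and 14.9 CPM in ex vivo macrophages (log2 fold change 5.11, SE 0.63, adjusted p = 0.000123). Hic1, a transcriptional repressor, had 0.677, 0.316 and 8.04 CPM in transwell macrophages, against 0.157, 0 and 0 CPM in ex vivo macrophages (adjusted p = 0.0261), which was highest in transwell library 3 and was lost without transwell library 3 or ex vivo library 2 or 3 and without batch 340 (highest adjusted p 0.177).

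Among 9 tested genes of retinoid supply, 2 rose and 1 fell. That is 33.3% of the list, against 12.9% of all genes called in either direction. Aldh1a2, which makes retinoic acid from retinal, had 4, 6.12 and 10.2 CPM in transwell macrophages, against 28.4, 10.7 and 37.7 CPM in ex vivo macrophages (log2 fold change -1.95, SE 0.49, adjusted p = 0.0169). Rdh11, a retinal reductase, had 22.8, 27.7 and 37.2 CPM in transwell macrophages, against 9.99, 15.7 and 11.7 CPM in ex vivo macrophages (log2 fold change 1.19, SE 0.27, adjusted p = 0.00939). Dhrs9, a retinol dehydrogenase, had 8.43, 18.8 and 27.3 CPM in transwell macrophages, against 2.098, 3.34 and 0.798 CPM in ex vivo macrophages (log2 fold change 3.08, SE 0.86, adjusted p = 0.0284). All 3 sets of values were without overlap. The call of Aldh1a2 was lost without transwell library 1 or 2 or ex vivo library 1 or 3, when the fit held only the 6 libraries and without batch 340 (highest adjusted p 0.0771), and that of Dhrs9 without transwell library 2 or 3 or ex vivo library 1, 2 or 3 (highest adjusted p 0.107). The letters searched in promoters were 2 copies of GGTCA or GTTCA with 5 bases between them. They are shorter than the half-sites that RAR and RXR bind, so the search does not cover the direct repeat of those receptors. The letters were not found in the 15 promoters of the receptor and target list that RefSeq provides, against 0.241% of the promoters of all 27025 genes. At so low a share, absence from 15 promoters says nothing about the list. A promoter is the window from 250 bases before to 50 after the start.

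**Figure D3:**
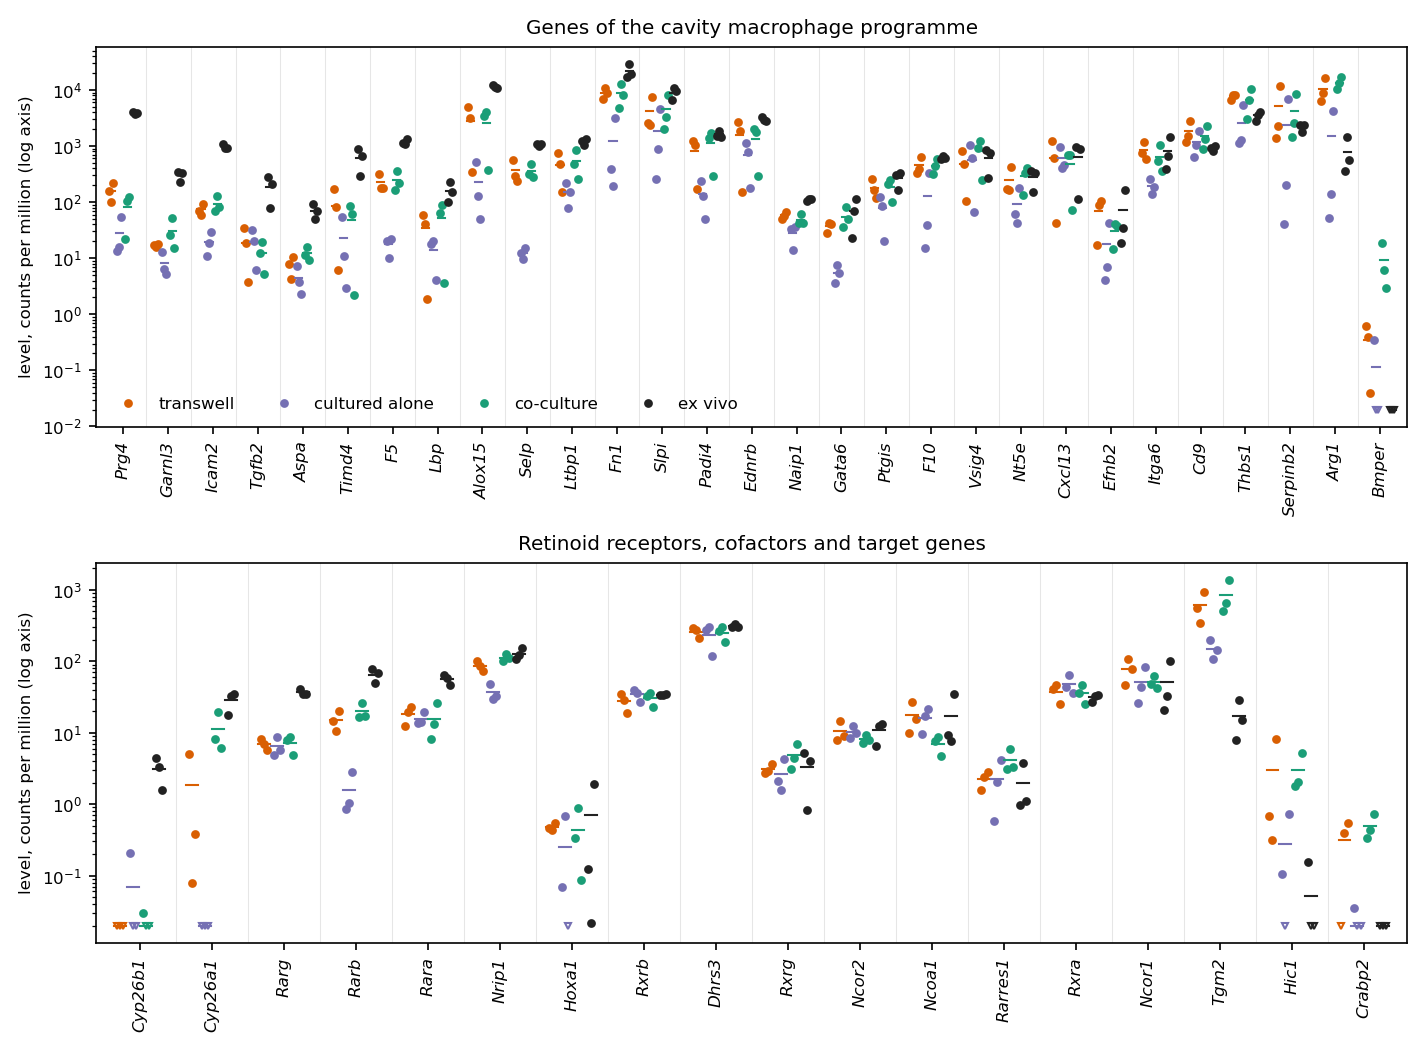
Level in CPM (log axis) of the cavity programme genes (top) and of retinoid receptors, cofactors and targets (bottom), ordered by fold change, in transwell (orange), cultured alone (violet), co-cultured (green) and ex vivo macrophages (black). Points are libraries, lines are means and open triangles mark libraries below 0.02 CPM; for Prg4, Icam2 and Rarg all cultured libraries sit below all ex vivo libraries, while Selp and Rarb sit higher in transwell and co-culture than in cells cultured alone.

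Cholesterol synthesis and uptake genes rose with few exceptions. Of 24 tested genes 20 rose and none fell (median log2 fold change 1.66), and 17 to 20 rose when any single library was left out. Msmo1, a C4-methylsterol oxidase, had 294, 296 and 232 CPM in transwell macrophages, against 33.8, 43.6 and 40.6 CPM in ex vivo macrophages (log2 fold change 2.77, SE 0.22, adjusted p = 4.04e-06). Cyp51, lanosterol demethylase, had 177, 198 and 125 CPM in transwell macrophages, against 10.2, 19.5 and 15.2 CPM in ex vivo macrophages (log2 fold change 3.45, SE 0.29, adjusted p = 4.95e-06). Sqle, squalene epoxidase, had 128, 151 and 106 CPM in transwell macrophages, against 3.6, 18.5 and 13.3 CPM in ex vivo macrophages (log2 fold change 3.41, SE 0.46, adjusted p = 0.000256). Every transwell library lay above every ex vivo library for these 3 genes. The members that did not pass were Mvd, Pmvk, Nsdhl and Ebp, and Ebp had a log2 fold change of -0.40 (adjusted p = 0.0869). The targets of the oxysterol receptor LXR did not follow as a group, since 2 of 14 rose and 1 fell, or 3 and 4 with batch as a block. In the fit by group 21.4% of this list was called in either direction, against 12.9% of all genes. Abcg1, a cholesterol exporter and LXR target, had 3.85, 6.63 and 5.99 CPM in transwell macrophages, against 38.4, 27.6 and 24.7 CPM in ex vivo macrophages (log2 fold change -2.50, SE 0.34, adjusted p = 0.000255).

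The promoter of Hmgcs1, which encodes HMG-CoA synthase, is shown because it was the only one of 17 available promoters of the list with the sterol regulatory element type TCACNCCAC, on either strand. The same letters are in 1.44% of all promoters. The window is chr13:119690101-119690400 on the plus strand (RefSeq, GRCm38.p6), with the match in capitals, 137 bases before the start.
Hmgcs1: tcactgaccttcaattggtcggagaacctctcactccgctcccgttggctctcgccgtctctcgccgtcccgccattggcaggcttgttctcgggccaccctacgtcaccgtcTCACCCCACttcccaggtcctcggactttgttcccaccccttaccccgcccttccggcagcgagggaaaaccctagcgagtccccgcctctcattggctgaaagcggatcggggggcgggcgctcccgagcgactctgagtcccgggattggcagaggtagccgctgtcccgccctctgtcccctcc
Hmgcs1, chosen here for its promoter after its values were seen, had 153, 171 and 102 CPM in transwell macrophages, against 23.1, 31.3 and 26.4 CPM in ex vivo macrophages (log2 fold change 2.37, SE 0.25, adjusted p = 3.70e-05).

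Glutathione and oxidative stress genes also rose in most cases, 15 of 27 with 1 lower (median log2 fold change 1.59). Leaving out ex vivo library 1 or 2 left 10 higher, and the other libraries 11 to 16. Gsta3 had 34.2, 60.2 and 84.8 CPM in transwell macrophages, against 0.0939, 0 and 0.0855 CPM in ex vivo macrophages, where 6 counts made up the whole group. Slc7a11 had 33.8, 181 and 1001 CPM in transwell macrophages, against 0.0313, 0.0868 and 0.0855 CPM in ex vivo macrophages. The transwell values of Slc7a11 span a far wider range than those of Gsta3. Gstm2, another glutathione transferase, had 8.12, 30.5 and 103 CPM in transwell macrophages, against 0.251, 0.391 and 0.171 CPM in ex vivo macrophages (log2 fold change 7.35, SE 1.51, adjusted p = 0.00523). Nqo1, a quinone reductase, rose by 5.19 ± 1.60 (adjusted p = 0.0445) on the log2 scale, and this call was lost without transwell library 2 or 3 or ex vivo library 1, 2 or 3 (highest adjusted p 0.192). Gsto1, the omega-class transferase, was the 1 member that fell, at 72.7, 76.7 and 83.6 CPM in transwell macrophages, against 124, 149 and 147 CPM in ex vivo macrophages (log2 fold change -0.88, SE 0.16, adjusted p = 0.00224).

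The antioxidant response element type TGACNNNGC was in 8 of 22 available promoters of the list and in 6 of the 12 whose genes rose, against 3781 of all 27025 promoters on either strand. The promoter of Gsta3 carries it 121 bases before the start and is shown as the member with the largest change that has it, at chr1:21240335-21240634 on the plus strand (RefSeq, GRCm38.p6), with the match in capitals.
Gsta3: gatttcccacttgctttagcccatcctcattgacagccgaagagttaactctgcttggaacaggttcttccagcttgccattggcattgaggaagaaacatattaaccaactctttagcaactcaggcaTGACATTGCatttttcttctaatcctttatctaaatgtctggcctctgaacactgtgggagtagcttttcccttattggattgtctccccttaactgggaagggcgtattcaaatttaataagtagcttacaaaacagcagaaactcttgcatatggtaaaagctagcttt

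Of 24 glycolysis and hypoxia genes, 11 rose and none fell (median log2 fold change 1.30), with 8 to 11 when any single library was left out. Vegfa, the vascular endothelial growth factor A, had 188, 155 and 298 CPM in transwell macrophages, against 0.814, 0.195 and 0.342 CPM in ex vivo macrophages (log2 fold change 8.88, SE 0.72, adjusted p = 4.95e-06). Slc2a1, the glucose transporter GLUT1, had 90.7, 161 and 334 CPM in transwell macrophages, against 15.5, 18.03 and 14.6 CPM in ex vivo macrophages (log2 fold change 3.56, SE 0.74, adjusted p = 0.00539). Both genes were without overlap and highest in transwell library 3. Bnip3, a mitophagy receptor, had 124, 136 and 178 CPM in transwell macrophages, against 25.7, 23.7 and 23.6 CPM in ex vivo macrophages (log2 fold change 2.55, SE 0.32, adjusted p = 0.000156). Adm, which encodes adrenomedullin, had 7.199, 5.29 and 3.402 CPM in transwell macrophages, against 0.219, 0.0434 and 0.171 CPM in ex vivo macrophages (log2 fold change 5.19, SE 0.81, adjusted p = 0.000728). Here the order among transwell libraries was the reverse, with library 3 the lowest. In macrophages cultured alone, 6 members of the list rose and 2 fell against the same ex vivo libraries (median log2 fold change 0.45), where 9.31% of all genes rose and 8.5% fell. The 2 comparisons share the ex vivo libraries, and the direct comparison of transwell with cultured-alone macrophages called no member of this list. In that direct comparison all 24 estimates were above 0, with a median log2 fold change of 0.85, against -0.01 for all genes.

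The hypoxia response element core ACGTG was in 16 of 23 available promoters and in 9 of the 11 whose genes rose, against 21.8% of all promoters on either strand. Vegfa is counted in both, but its match lies within protein-coding sequence of the gene (window chr17:46025114-46025413). That window is therefore not the main promoter of Vegfa. The promoter of Bnip3 is shown because it holds the core as the palindrome in capitals, which counts on both strands, 108 bases before the start. It was chosen after the matches were seen. Slc2a1, with a larger change, also holds the core, and the window of Ldha holds the palindrome too. The window of Bnip3 is chr7:138909457-138909756 on the minus strand, printed in the direction of the gene (RefSeq, GRCm38.p6).
Bnip3: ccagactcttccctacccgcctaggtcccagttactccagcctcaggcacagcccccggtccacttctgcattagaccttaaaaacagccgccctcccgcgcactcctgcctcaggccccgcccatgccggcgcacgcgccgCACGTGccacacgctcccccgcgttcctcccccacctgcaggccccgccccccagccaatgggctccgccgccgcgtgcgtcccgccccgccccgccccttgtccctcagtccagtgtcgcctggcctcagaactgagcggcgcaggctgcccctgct
A match in such a window is a description of the sequence and does not show that a factor binds there.

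**Figure D4:**
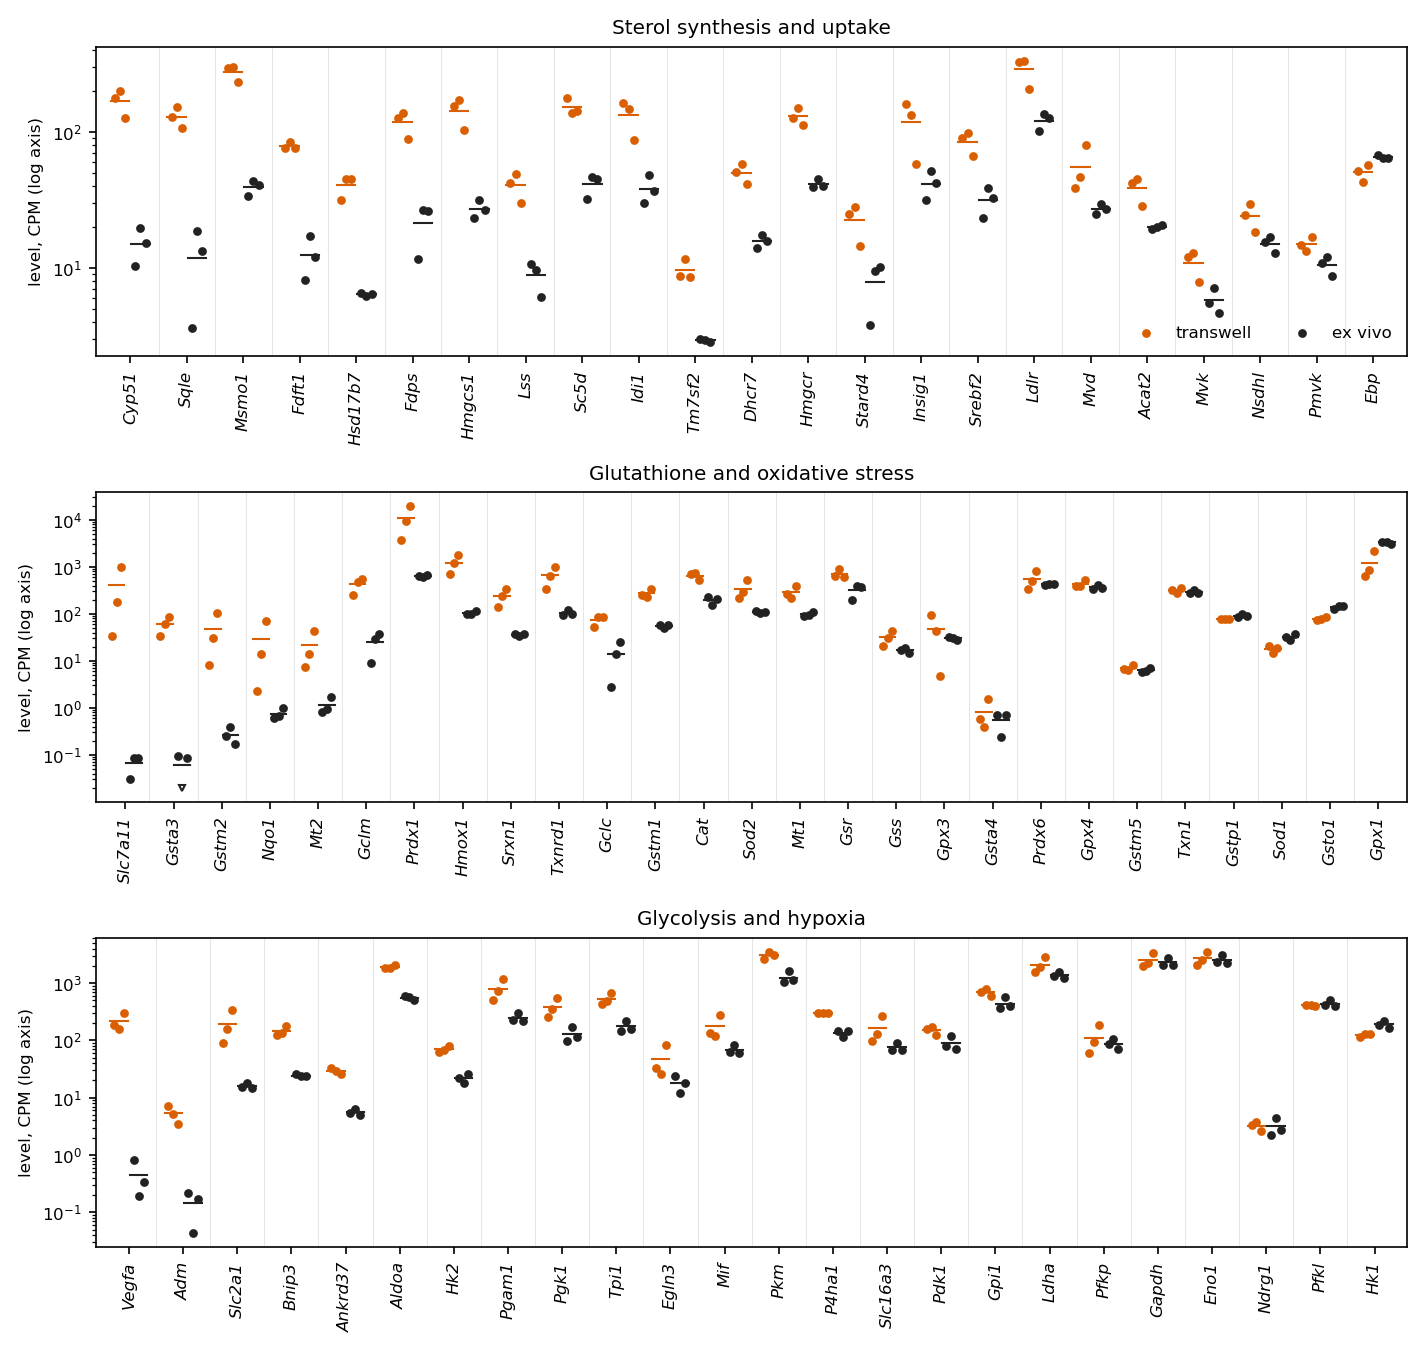
Level in CPM (log axis) of sterol (top), glutathione and oxidative stress (middle) and glycolysis and hypoxia genes (bottom), ordered by fold change, in transwell (orange) and ex vivo macrophages (black). Points are libraries, lines are means and the open triangle marks a library below 0.02 CPM; the called sterol genes lie close together among the 3 transwell libraries, while Slc7a11 and Gstm2 spread widely.

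Genes of lipid-laden macrophages rose in 11 of 19 cases and fell in none (median log2 fold change 2.09). Gpnmb, a glycoprotein of lysosome-rich macrophages (ENSMUSG00000029816, chr6:49036546-49070929, GRCm38), had 2205, 4719 and 3510 CPM in transwell macrophages, against 3.76, 4.75 and 5.76 CPM in ex vivo macrophages (log2 fold change 9.48, SE 0.66, adjusted p = 2.54e-06). Itgax, the integrin chain CD11c, had 15.2, 90.7 and 197 CPM in transwell macrophages, against 0.251, 0.152 and 0 CPM in ex vivo macrophages (log2 fold change 9.48, SE 1.73, adjusted p = 0.00236). Atp6v0d2, a subunit of the proton pump, had 97.9, 227 and 383 CPM in transwell macrophages, against 0.188, 0.694 and 0.285 CPM in ex vivo macrophages (log2 fold change 9.15, SE 1.18, adjusted p = 0.000185). Every transwell library lay above every ex vivo library for these 3 genes. Among lysosomal genes 9 of 26 rose and 1 fell (median log2 fold change 1.08). Ctsl, cathepsin L, had 1225, 3052 and 5464 CPM in transwell macrophages, against 189, 322 and 224 CPM in ex vivo macrophages (log2 fold change 3.69, SE 0.85, adjusted p = 0.009995). Cstb, a cathepsin inhibitor, rose by 2.94 ± 0.60 (adjusted p = 0.00474) on the log2 scale and Gla, α-galactosidase A, by 2.62 ± 0.49 (adjusted p = 0.002996). Ctsk, cathepsin K, which both lists hold, rose by 7.73 ± 2.29 (adjusted p = 0.0367) and was lost without transwell library 2 or 3 or ex vivo library 1, 2 or 3 (highest adjusted p 0.135). Cst3, cystatin C, was the lysosomal list's lower gene, at -0.86 ± 0.27 (adjusted p = 0.0491), lost without transwell library 1, 2 or 3 or ex vivo library 1 or 3, with no low count filter, when the fit held only the 6 libraries and without batch 340 (highest adjusted p 0.175).

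Extracellular proteases rose in 9 of 20 cases and 1 fell (median log2 fold change 3.33, or 3.26 with genes at 0 counts in a group set to their bound). Leaving out ex vivo library 1 or 2 left 6 higher calls, and the other libraries 7 to 10. Besides Mmp12, Mmp13 and Mmp8, Mmp14, a membrane-bound activator of other metalloproteinases, had 111, 299 and 359.9 CPM in transwell macrophages, against 0.157, 1.497 and 0.627 CPM in ex vivo macrophages (log2 fold change 8.32, SE 1.05, adjusted p = 0.000154). Mmp25 was the lower one, at 0.123, 0.0395 and 0 CPM in transwell macrophages, against 1.13, 2.28 and 0.114 CPM in ex vivo macrophages (adjusted p = 0.0413). Its groups overlapped, and it was lost without transwell library 1, 2 or 3 or ex vivo library 1 or 2 and with no low count filter (highest adjusted p 0.161). The calls of Mmp13 and Mmp8 depend on the ex vivo libraries named with their values above.

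Among uptake and scavenger receptors 10 of 25 rose and 1 fell, namely Lyve1 (median log2 fold change 1.15). Leaving out transwell library 1, 2 or 3 left 6, 4 or 9 higher calls, and leaving out ex vivo library 1, 2 or 3 left 5, 6 or 4. Clec4n, dectin-2, had 1304, 2046 and 6482 CPM in transwell macrophages, against 2.41, 0.824 and 6.93 CPM in ex vivo macrophages (log2 fold change 9.89, SE 1.33, adjusted p = 0.000247). Clec7a, dectin-1, had 902, 1342 and 3163 CPM in transwell macrophages, against 81.2, 56.8 and 83.9 CPM in ex vivo macrophages (log2 fold change 4.57, SE 0.77, adjusted p = 0.00132). Both receptors of fungal sugars were highest in transwell library 3. Siglec1, a sialic acid receptor, had 172, 143 and 33.3 CPM in transwell macrophages, against 10.6, 16.03 and 10.5 CPM in ex vivo macrophages (log2 fold change 3.21, SE 0.68, adjusted p = 0.00635), with library 3 the lowest. Gas6, the bridge between dying cells and TAM receptors, had 647, 370.0 and 4.91 CPM in transwell macrophages, against 2.04, 5.62 and 4.96 CPM in ex vivo macrophages (adjusted p = 0.0397), so library 3 lay within the ex vivo range, and the call was lost without transwell library 1 or 2 or ex vivo library 1, 2 or 3 (highest adjusted p 0.134).

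The MS4A family of membrane proteins held 5 higher and no lower calls among 11 tested genes (median log2 fold change 1.94). Ms4a7 had 252, 159 and 130.1 CPM in transwell macrophages, against 0.438, 0.0651 and 0.741 CPM in ex vivo macrophages (log2 fold change 8.77, SE 0.80, adjusted p = 1.13e-05). Ms4a4a had 215, 164 and 20.03 CPM in transwell macrophages, against 0.188, 0.672 and 0.257 CPM in ex vivo macrophages (log2 fold change 8.40, SE 1.03, adjusted p = 0.000122). Ms4a14 had 10.2, 6.16 and 5.07 CPM in transwell macrophages and no count in ex vivo macrophages, at least 269-fold higher (adjusted p = 7.25e-05). Ms4a6b had 57.6, 37.3 and 5.61 CPM in transwell macrophages, against 1.78, 0.586 and 0.599 CPM in ex vivo macrophages (log2 fold change 5.07, SE 1.23, adjusted p = 0.0134), lost without ex vivo library 2 or 3 (highest adjusted p 0.0668). None of these 4 showed an overlap, and the family has close copies between which the counting may split reads.

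Among 23 tested chemokines 6 rose and none fell (median log2 fold change 3.74, or 2.86 with genes at 0 counts set to their bound). With batch as a block 12 rose and 1 fell, and 3 rose when any single ex vivo library was left out, against 4 without transwell library 3. Ccl3, an inflammatory chemokine, had 46.5, 60.7 and 272 CPM in transwell macrophages, against 1.75, 2.54 and 1.28 CPM in ex vivo macrophages (log2 fold change 6.04, SE 1.15, adjusted p = 0.00322). Ccl12, a ligand of CCR2, had 27.2, 12.2 and 12.6 CPM in transwell macrophages, against 0, 0.2603 and 0.171 CPM in ex vivo macrophages (log2 fold change 6.78, SE 1.65, adjusted p = 0.0142). Ccl4 rose by 6.32 ± 1.67 (adjusted p = 0.0211) and Ccl7 by 8.58 ± 2.62 (adjusted p = 0.0425) on the log2 scale. Ccl12 was lost without ex vivo library 1, 2 or 3 (highest adjusted p 0.0586), Ccl4 without transwell library 3 or ex vivo library 1, 2 or 3 (highest adjusted p 0.084) and Ccl7 without transwell library 1, 2 or 3 or ex vivo library 1, 2 or 3 (highest adjusted p 0.148). On the receptor side 4 of 15 rose and 1 fell, with 2 higher calls without ex vivo library 3 and 8 with batch as a block. Cxcr4 had 7.32, 5.999 and 15.6 CPM in transwell macrophages, against 0.282, 0.347 and 0.456 CPM in ex vivo macrophages (log2 fold change 4.68, SE 0.64, adjusted p = 0.000273). Ccr2, a receptor of monocytes, had 1.91, 2.49 and 3.29 CPM in transwell macrophages, against 5.26, 38.9 and 14.9 CPM in ex vivo macrophages (log2 fold change -2.98, SE 0.70, adjusted p = 0.0112), lost without ex vivo library 2 (highest adjusted p 0.0758). Tnf and Tnfsf9, cytokines of the tumour necrosis factor family, rose by 3.33 ± 0.73 (adjusted p = 0.00774) and 3.42 ± 0.67 (adjusted p = 0.00395). They were the 2 calls among 16 tested cytokines, against 4 with batch as a block. Those 2 are 12.5% of the list, near the 12.9% of all genes called in either direction.

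Growth factors and their receptors rose in 10 of 23 cases and fell in none (median log2 fold change 3.08, or 2.66 with genes at 0 counts set to their bound). Leaving out transwell library 2 or 3 or ex vivo library 2 left 6 higher calls, and leaving out ex vivo library 1 or 3 left 5. Nrp2, a coreceptor of vascular endothelial growth factors and semaphorins, had 78.02, 193 and 148 CPM in transwell macrophages, against 0.908, 4.599 and 3.76 CPM in ex vivo macrophages (log2 fold change 5.46, SE 0.77, adjusted p = 0.000342). Csf2rb2, a receptor chain for interleukin-3, had 137, 200.1 and 326 CPM in transwell macrophages, against 13.1, 22.7 and 17.2 CPM in ex vivo macrophages (log2 fold change 3.61, SE 0.76, adjusted p = 0.00584). Pdgfb, a platelet-derived growth factor chain, had 4.03, 10.03 and 13.4 CPM in transwell macrophages, against 0.501, 0.738 and 0.855 CPM in ex vivo macrophages (log2 fold change 3.66, SE 0.62, adjusted p = 0.00144). Kdr, the main receptor of VEGF-A, had 1.05, 0 and 1.78 CPM in transwell macrophages, against 0.0313, 0.0434 and 0 CPM in ex vivo macrophages (adjusted p = 0.0424). The Kdr groups overlapped and its call was lost without transwell library 1 or 3 or ex vivo library 1, 2 or 3, with no low count filter and without batch 340 (highest adjusted p 0.192).

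Cell cycle genes had estimates below ex vivo levels in 31 of 32 cases, of which 13 passed the test (median log2 fold change -2.68). Here fewer dividing cells and less of these RNAs per cell cannot be told apart, as for every list in these bulk libraries. The ex vivo libraries differed among themselves, with library 2 the highest. Mcm7, a subunit of the replicative helicase, had 17.6, 21.8 and 10.01 CPM in transwell macrophages, against 59.2, 222 and 88.3 CPM in ex vivo macrophages (log2 fold change -2.93, SE 0.50, adjusted p = 0.001401). Kif11, a spindle motor, had 11.3, 15 and 1.701 CPM in transwell macrophages, against 33.4, 197 and 90.8 CPM in ex vivo macrophages (log2 fold change -3.54, SE 0.91, adjusted p = 0.0186). Log2 fold changes ± SE were -3.32 ± 0.97 (adjusted p = 0.0352) for Mcm5, another helicase subunit, and -3.19 ± 0.81 (adjusted p = 0.0176) for Aurkb, a mitotic kinase. The number of calls was 24 without batch 340 and 27 with DESeq2, and it was 7, 7 or 6 without transwell library 1, 2 or 3 and 15, 5 or 11 without ex vivo library 1, 2 or 3. Kif11 was lost without transwell library 1 or 3 or ex vivo library 2 (highest adjusted p 0.0837), Mcm5 without transwell library 1, 2 or 3 or ex vivo library 2 or 3 (highest adjusted p 0.135) and Aurkb without transwell library 1, 2 or 3 or ex vivo library 2 (highest adjusted p 0.0835).

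Of 15 cytosolic chaperones 4 fell and none rose (median log2 fold change -0.57). Hspa1b, an inducible HSP70, had 1.23, 1.85 and 2.9 CPM in transwell macrophages, against 48.9, 59.4 and 81.7 CPM in ex vivo macrophages (log2 fold change -5.02, SE 0.62, adjusted p = 0.0001301). Hspa1a, its near-identical copy, had 0.738, 2.09 and 3.05 CPM in transwell macrophages, against 20.3, 34.9 and 32.9 CPM in ex vivo macrophages (log2 fold change -3.94, SE 0.57, adjusted p = 0.000407). Reads of the 2 copies may be split between them, and both moved the same way. Log2 fold changes ± SE were -2.89 ± 0.67 (adjusted p = 0.0112) for Hspb1, HSP27, and -0.57 ± 0.14 (adjusted p = 0.01498) for Dnajb1, a cochaperone. Hspb1 was lost without transwell library 3 (highest adjusted p 0.0537) and Dnajb1 without transwell library 1 or 2 or ex vivo library 3, with no low count filter and without batch 340 (highest adjusted p 0.0694). An exact form of the heat shock element was in 4 of 11 available promoters of the list and in none of the 4 whose genes fell. It was in 0.662% of all promoters. The windows of Hspe1 and Hspd1 overlap on opposite strands and share their match, so these are not separate sites. Elements that deviate from the exact form were not searched, so its absence does not show that the 4 promoters lack a heat shock element.

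Of 13 class II antigen presentation genes 2 fell and none rose (median log2 fold change -1.12). Those 2 are 15.4% of the list, near the 12.9% of all genes called in either direction. H2-Aa, the α chain of I-A, had 3.26, 1.78 and 1.66 CPM in transwell macrophages, against 21.5, 49.3 and 13.4 CPM in ex vivo macrophages (log2 fold change -3.67, SE 0.67, adjusted p = 0.00236). H2-Eb1, the β chain of I-E, had 2.49, 1.66 and 1.04 CPM in transwell macrophages, against 8.296, 25.5 and 4.96 CPM in ex vivo macrophages (log2 fold change -2.92, SE 0.72, adjusted p = 0.0145), lost without transwell library 2 or 3 or ex vivo library 2 (highest adjusted p 0.0954). Ex vivo library 2 was the highest for both. With batch as a block 6 class II genes fell. Markers of small peritoneal macrophages, which carry class II, summed to 877, 281 and 50.6 CPM in transwell macrophages, against 749, 1154 and 847 CPM in ex vivo macrophages. Of that list 3 of 10 tested members fell, Retnla, Ccr2 and H2-Eb1, and the part of these cells in the result was not tested.

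Against macrophages cultured alone, the transwell macrophages differed in few genes at this threshold: 5 of 17774 (0.0281%), all higher, with 1700 at an unadjusted p under 0.05. Selp had 569, 298 and 239 CPM in transwell macrophages, against 12.4, 9.805 and 15.3 CPM in cultured-alone macrophages (log2 fold change 4.85, SE 0.43, adjusted p = 0.000187). Rarb had 14.4, 10.5 and 19.8 CPM in transwell macrophages, against 0.867, 1.04 and 2.82 CPM in cultured-alone macrophages (log2 fold change 3.22, SE 0.46, adjusted p = 0.0373). These 2 genes lay between the cultured-alone and the ex vivo level and differed from both. The other 3, named after their values were seen because they complete the count, passed no test against ex vivo cells. Ifitm3, an antiviral membrane protein, had 919, 736 and 756 CPM in transwell macrophages, 175, 303 and 351 CPM in cultured-alone macrophages (adjusted p = 0.0481) and 925, 819.5 and 899.5 CPM in ex vivo macrophages (adjusted p = 0.727). Mcu, the mitochondrial calcium uniporter, had 47.01, 34.5 and 32.2 CPM in transwell macrophages, 11.9, 9.94 and 15.96 CPM in cultured-alone macrophages (adjusted p = 0.0436) and 59.9, 57.4 and 49.8 CPM in ex vivo macrophages (adjusted p = 0.111). Cass4, an adaptor of integrin signalling, had 7.26, 13.3 and 17.9 CPM in transwell macrophages, 1.01, 0.587 and 1.68 CPM in cultured-alone macrophages (adjusted p = 0.0481) and 8.36, 16.4 and 12.6 CPM in ex vivo macrophages. The call of Selp against cultured-alone cells held in each alternative. That of Rarb was lost without transwell library 1 or 3 or cultured-alone library 1 or 2 (highest adjusted p 0.222), that of Mcu without transwell library 1, 2 or 3 or cultured-alone library 1 or 2 and with no low count filter (highest adjusted p 0.222), that of Cass4 without transwell library 1, 2 or 3 or cultured-alone library 1 or 2 and with RLE scaling (highest adjusted p 0.319) and that of Ifitm3 without transwell library 1, 2 or 3 or cultured-alone library 1 or 2, with RLE scaling and with no low count filter (highest adjusted p 0.222). Batch as a block gave 23 calls, and leaving out single libraries gave 1 or 2, except 43 without cultured-alone library 3.

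Against co-cultured macrophages, 7 genes differed (0.0394%), all lower in transwell macrophages, with 794 at an unadjusted p under 0.05. Acta2, smooth muscle actin, had 7.38, 3.91 and 4.37 CPM in transwell macrophages, against 216, 146 and 60.9 CPM in co-cultured macrophages (log2 fold change -4.74, SE 0.54, adjusted p = 0.00461). The PDPN+ cells of the transwell cultures held 1295, 1566 and 3083 CPM of it. The other 6 were Mfap5, Tagln, Meg3, Hspb1, Myl9 and Des, and all of them averaged higher in PDPN+ transwell cells than in co-cultured macrophages. Their log2 fold changes against co-culture were -6.69 for Mfap5, -4.71 for Tagln, -3.91 for Meg3, -4.66 for Hspb1, -5.60 for Myl9 and -5.73 for Des (adjusted p from 0.0165 to 0.0484). Batch as a block gave 33 calls, and leaving out single libraries gave 0 to 4, except 14 without co-culture library 3, and none of the 7 kept its call in every alternative. Each of these 6 was lost without transwell library 1, 2 or 3 and without co-culture library 1, and Des, Hspb1 and Myl9 also without co-culture library 2 (highest adjusted p over these alternatives 0.367). Acta2 was lost without transwell library 2 or 3 (highest adjusted p 0.0884). No member of the cavity programme passed the test between transwell and co-cultured macrophages, and the median log2 fold change of the list was 0.03.

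Set side by side against the same ex vivo libraries, the cavity programme had 7 lower and no higher calls in transwell macrophages, 8 lower and 1 higher in co-cultured macrophages, and 16 lower and none higher in macrophages cultured alone. The medians were -0.95, -1.18 and -2.31. Over all genes 9.47% rose and 5.45% fell in co-cultured macrophages. The sterol list had 20 higher calls in transwell macrophages, 20 with 1 lower in co-cultured macrophages, and 21 in macrophages cultured alone, with medians of 1.66, 1.69 and 1.47. The cell cycle list had 13, 13 and 28 lower calls, with medians of -2.68, -2.29 and -3.25. These comparisons share the ex vivo libraries, so their likeness is no independent finding. The direct comparison of transwell with cultured-alone macrophages gave medians of 1.60 for the cavity programme, 0.07 for the sterol list and 0.84 for the cell cycle list, against -0.01 for all genes, and called 1 cavity gene (Selp) and no sterol or cell cycle gene.

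Markers of other cell types are given here by list, and most of their tested members did not pass the test. Fibroblast markers summed to 57.7, 35.7 and 167 CPM in transwell macrophages, against 15.03, 1.21 and 6.27 CPM in ex vivo macrophages. The PDPN+ cells of the transwell cultures held 23789, 27690 and 33582 CPM. Most of the highest transwell sum came from Dcn, a proteoglycan with 1.42, 1.697 and 140.5 CPM in transwell macrophages, 0.659, 0.391 and 87.8 CPM in macrophages cultured alone and 1.75, 0 and 0.228 CPM in ex vivo macrophages. Of 17 fibroblast markers 2 rose, Postn by 4.21 ± 1.29 (adjusted p = 0.0434) and Fbln2 by 2.67 ± 0.81 (adjusted p = 0.0413) on the log2 scale. Those 2 are 11.8% of the list, near the 12.9% of all genes called in either direction. Postn was lost without transwell library 1 or 2 or ex vivo library 1 or 2 and when the fit held only the 6 libraries (highest adjusted p 0.144), and Fbln2 without transwell library 1, 2 or 3 or ex vivo library 2 or 3 and without batch 340 (highest adjusted p 0.156). Smooth muscle markers summed to 12.8, 6.79 and 9.67 CPM in transwell macrophages, against 2.35, 1.97 and 2.17 CPM in ex vivo macrophages, and Acta2 rose against ex vivo cells (log2 fold change 2.13, SE 0.50, adjusted p = 0.0111) with 7.11, 6.196 and 6.66 CPM in macrophages cultured alone. Tpm2 rose by 3.32 ± 0.69 (adjusted p = 0.00578) and was lost without batch 340 (highest adjusted p 0.0593). Mesothelial markers summed to at most 2.05 CPM in transwell macrophages and 2.34 CPM in ex vivo macrophages.

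Of the blood cell lists, dendritic cell markers summed to 664, 195 and 20.7 CPM in transwell macrophages, against 25.95, 7.57 and 26.99 CPM in ex vivo macrophages. Cd209a gave most of the transwell sums at 658, 186 and 3.25 CPM, while Flt3, the defining receptor, had no count in any transwell library. T and NK cell markers summed to 21.01, 61.5 and 131 CPM in transwell macrophages, against 6.105, 3.84 and 1.34 CPM in ex vivo macrophages, with Il7r the 1 member that rose (log2 fold change 7.91, SE 1.73, adjusted p = 0.00751). B cell markers summed to 128, 44.8 and 82.3 CPM in transwell macrophages, against 16.97, 35.1 and 3.82 CPM in ex vivo macrophages, and mast cell markers to 44.1, 97.5 and 4.06 CPM in transwell and 15.8, 12.8 and 0.456 CPM in ex vivo macrophages. The mast cell sums were 9.19, 1.15 and 1.68 CPM in macrophages cultured alone and 7.17, 9.14 and 1.38 CPM in co-cultured macrophages. In both direct comparisons all 8 tested mast cell markers had estimates higher in transwell macrophages, and none passed the test. Neutrophil markers summed to 357, 446 and 1026 CPM in transwell macrophages, against 233, 159 and 198 CPM in ex vivo macrophages, mainly Csf3r and Mmp8, while S100a9 and Ly6g had no count in the transwell group. Of the tested members, 1 of 8 B cell markers rose (Cd22), 1 of 8 T and NK cell markers (Il7r), 1 of 4 neutrophil markers (Mmp8), 1 of 8 mast cell markers (Gata2), 1 of 3 eosinophil markers (Ccr3) and 2 of 3 endothelial markers (Vwf and Kdr), while 1 of 2 adipocyte markers fell (Plin1). Over all genes tested 7.61% rose and 5.33% fell. A count of 1 in 8 is 12.5%, near the 12.9% of all genes called in either direction. The call of Vwf was lost without transwell library 2 or 3 or ex vivo library 1, 2 or 3 (highest adjusted p 0.156), that of Ccr3 without ex vivo library 3 (highest adjusted p 0.0525) and that of Plin1 without transwell library 2 or 3 or ex vivo library 2 and without batch 340 (highest adjusted p 0.0901). None of 6 dendritic, 7 mesothelial and 2 erythroid markers passed the test. The part of such cells in the results was not tested beyond these values.

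**Figure D5:**
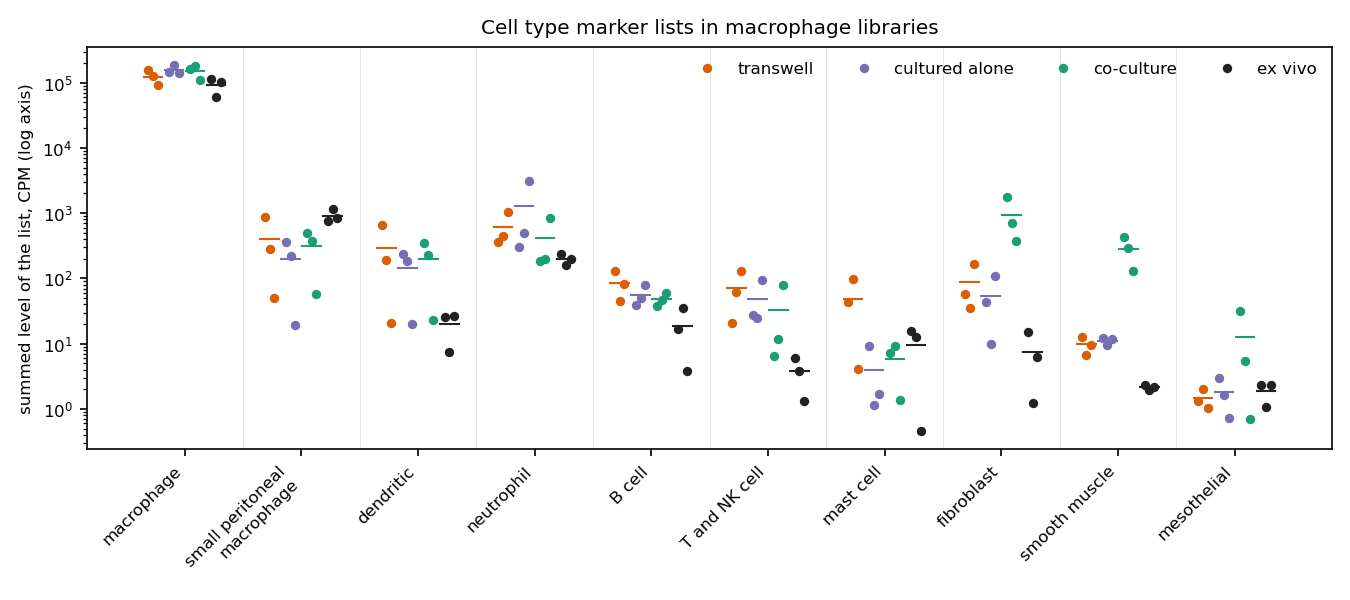
Summed level in CPM (log axis) of the marker lists of 10 cell types in transwell (orange), cultured alone (violet), co-cultured (green) and ex vivo macrophages (black). Points are libraries and lines are means; macrophage markers exceed every other list in each group, and the fibroblast and smooth muscle sums of transwell macrophages lie far below those of co-cultured macrophages.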

How the data were processed

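Polyadenylated RNA of mouse cells was sequenced, and each library was deposited as a table with whole-read counts per gene model and RPKM values, which per the file headers hold reads that align uniquely to the gene model and size-factor-adjusted RPKM. The submitters' processing notes name GSNAP and GRCm38. The deposited counts were tested, and the deposited RPKM values were not. Gene models without a symbol held 0.0358% of counts. They stayed in the scaling, the filter and the test, and were left out only when genes were named. Counts of the 18 macrophage libraries were filtered with filterByExpr by group (17774 genes left), TMM-scaled and fitted by group with the quasi-likelihood test of edgeR 4.0.16 in R 4.3.3, with Benjamini-Hochberg adjustment over all genes and a threshold of 0.05. The printed CPM values were TMM-scaled separately, over all 30 libraries of the series and without the filter, so their scale is not exactly that of the fold changes. SE is the log2 fold change divided by the square root of F. Coordinates are from GENCODE and promoters from RefSeq. Where a group had no count, folds were bounded with 3 counts over the group; intervals and bounds cover counting error only. Nothing in the labels says that libraries of a group came from separate mice or cultures, so p-values measure the spread between these libraries, which may be technical.

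Named genes were the 12 largest calls in each direction (group means reaching 10 CPM, libraries of the 2 groups apart), up to 4 calls per list and direction, any member of the cavity programme and of the retinoid list, and genes also called against cultured-alone or co-cultured macrophages; others are marked, and 1 called gene of the sterol list is not reported here. The comparison, the lists and their members were chosen with earlier results of these data known. For the macrophages cultured with all-trans retinoic acid and those titled BMS, the labels give a dose of 1 µM. Replicate numbers equal the labelled batches, so they pair the libraries by label; deviations of same-numbered transwell and ex vivo libraries correlated with r = 0.166, 0.11 and 0.0228. Alternatives were RLE scaling, DESeq2 1.42.0, no low count filter, batch as a block, a fit of the 6 libraries alone, leaving out batch 340 or each library, and leaving out genes high in PDPN+ cells.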

Additional observations from a re-analysis of the deposited data

How the results depend on the processing

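Of 112 named genes called between transwell and ex vivo macrophages, 69 kept their call in each alternative, 43 lost it in at least 1, and none changed direction. With batch as a replicate block, which pairs the libraries by label only, the comparison gave 3534 calls, 2052 higher and 1482 lower. Same-numbered transwell and ex vivo libraries shared little, so the added calls are not better supported for being paired. Leaving out single libraries gave 1359 to 1894 calls, with 852 to 1267 higher and 476 to 665 lower, and fewer samples are part of how that alternative is built. RLE scaling gave 2285 calls, DESeq2 3372, no low count filter 1789, the 6 libraries alone 2486 and the libraries without batch 340 2251.

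Transwell against cultured-alone macrophages gave 3 calls with RLE scaling, 250 with DESeq2, 3 with no low count filter, 23 with the block and 1 to 43 without single libraries. Transwell against co-cultured macrophages gave 150 calls with DESeq2, 15 with no low count filter, 33 with the block and 0 to 14 without single libraries. Why the tools differ was not tested. The block brought Alox15, Timd4, Lbp, Ednrb, Cd9, Arg1 and Bmper under the threshold against ex vivo cells, and Gata6 against cultured-alone cells. Genes with fewer than 3 counts in a group have folds known only as bounds or wide intervals.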

Other observations

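Of 23 tested eicosanoid genes 4 rose, 3 fell and 16 did not pass the test. Ltc4s, leukotriene C4 synthase, had 17.4, 9.67 and 21.5 CPM in transwell macrophages, against 315, 373 and 290.0 CPM in ex vivo macrophages (log2 fold change -4.36, SE 0.46, adjusted p = 3.74e-05). Alox5ap, the helper protein of 5-lipoxygenase, had 313, 282 and 312 CPM in transwell macrophages, against 544, 514 and 566 CPM in ex vivo macrophages (log2 fold change -0.87, SE 0.19, adjusted p = 0.008197). Tbxas1, thromboxane synthase, had 375, 435 and 365 CPM in transwell macrophages, against 164, 201 and 163 CPM in ex vivo macrophages (log2 fold change 1.12, SE 0.14, adjusted p = 0.000169). Hpgds, a prostaglandin D synthase, had 63.96, 45.4 and 6.11 CPM in transwell macrophages, against 0.0313, 0.998 and 0.855 CPM in ex vivo macrophages (log2 fold change 5.88, SE 1.25, adjusted p = 0.00634). No group overlapped with its counterpart in these 4 genes, and their calls held in each alternative.

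Receptors for extracellular nucleotides and adenosine included 6 higher and 1 lower among 15 tested. P2ry6, a receptor for UDP, had 125, 120.4 and 85.6 CPM in transwell macrophages, against 3.82, 6.99 and 5.59 CPM in ex vivo macrophages (log2 fold change 4.31, SE 0.50, adjusted p = 8.05e-05). P2ry13, a receptor for ADP, had 33.5, 27.04 and 8.78 CPM in transwell macrophages, against 1.94, 1.43 and 2.02 CPM in ex vivo macrophages (log2 fold change 3.66, SE 0.50, adjusted p = 0.000272). P2rx4, an ATP-gated channel, had 564, 507 and 393 CPM in transwell macrophages, against 165, 122 and 160.5 CPM in ex vivo macrophages (log2 fold change 1.68, SE 0.24, adjusted p = 0.000407). Every transwell library lay above every ex vivo library for these 3 receptors. Of 30 interferon response genes 2 rose and 3 fell, which is 16.7% of the list, against 12.9% of all genes. Leaving out single libraries gave 0 or 1 higher and 1 to 4 lower calls in that list. Gbp3 had 56.5, 36.2 and 21.3 CPM in transwell macrophages, against 173, 234 and 160.3 CPM in ex vivo macrophages (log2 fold change -2.34, SE 0.40, adjusted p = 0.00145). The guanylate-binding protein genes have close copies, between which the counting may split reads.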
